A study of Mus musculus with 6 samples.

Results

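The stefin A cluster is a run of duplicated genes on mouse chromosome 16 that encode small cysteine protease inhibitors. The 6 genes described here were chosen by symbol as Gm5483, BC100530, Stfa1, Stfa2, Stfa2l1 and Stfa3, and all 6 were found among the 23183 genes of the tables. They were chosen with their response to lipopolysaccharide (LPS) in these same libraries known, so their LPS and saline values are given as a description and carry no test. RNA was sequenced from lung tissue of C57BL/6 mice, with 3 libraries after saline and 3 after LPS, a membrane component of Gram-negative bacteria, both instilled into the trachea. The titles call all 6 libraries wild type. The genotype field calls the saline libraries wild type, LPS 1 and LPS 2 LCN2-/- and LPS 3 LCN4-/-, and the labels give no dose, age or time after instillation. Lcn2 stood at 13.60, 13.29 and 13.82 in LPS 1 to LPS 3 and at 8.20, 11.28 and 10.11 in saline 1 to saline 3, which goes against the LCN2-/- label. Lcn4 was low in every library, from 0.14 to 0.70. Under the genotype field, genotype and treatment cannot be told apart.

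Stefins, the type 1 cystatins, are unglycosylated inhibitors that stay mostly inside the cell and block papain-like cysteine proteases such as cathepsins B, H, L and S. Humans carry stefin A as CSTA alone, whereas mice carry a cluster of closely related copies, several of which are abundant in neutrophils. Stfa1, Stfa2 and Stfa3 encode stefins A1, A2 and A3, and Stfa2l1 encodes a stefin A2-like protein. At the positions of Gm5483 and BC100530 RefSeq lists genes as Cstdc4 and Cstdc5, for cystatin domain containing.

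The 6 genes lie within 298582 bases of chromosome 16 (mm10, 36156811 to 36455392). In the GENCODE annotation of that build 9 protein-coding genes fall in this span. Stfa2l1 (36156811 to 36161953), Gm5483 (36184212 to 36188111) and Stfa1 (36276951 to 36285373) are on the plus strand. BC100530 (36359382 to 36367748), Stfa2 (36403992 to 36408457) and Stfa3 (36450537 to 36455392) are on the minus strand. The other 3 coding genes of the span are Gm5416, 2010005H15Rik and BC117090.

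The sequences decide how well the copies can be told apart by reads, so the first 90 coding bases of the closest relatives are shown, from the reference transcripts of mm10, with capitals marking each base on which the gene differs from its partner.
Stfa1: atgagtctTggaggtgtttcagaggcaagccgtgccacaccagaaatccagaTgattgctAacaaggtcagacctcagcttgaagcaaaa
BC100530: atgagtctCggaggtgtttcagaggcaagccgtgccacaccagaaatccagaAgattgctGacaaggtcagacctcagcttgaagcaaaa
Stfa2: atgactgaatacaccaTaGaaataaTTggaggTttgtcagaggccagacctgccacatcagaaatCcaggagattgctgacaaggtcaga
Stfa2l1: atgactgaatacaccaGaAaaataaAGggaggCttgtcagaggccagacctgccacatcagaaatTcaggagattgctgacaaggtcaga
Gm5483: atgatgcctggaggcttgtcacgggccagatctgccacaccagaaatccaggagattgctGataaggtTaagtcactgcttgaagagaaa
2010005H15Rik: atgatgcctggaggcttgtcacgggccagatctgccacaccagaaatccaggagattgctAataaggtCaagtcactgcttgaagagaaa

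Stfa1 and BC100530 differed at 6 of 294 coding bases (98.0% identical), Stfa2 and Stfa2l1 at 11 of 312 (96.5%), and Gm5483 and the non-member 2010005H15Rik at 9 of 294 (96.9%). Over the 15 pairs of members the coding identity ran from 73.4% (Stfa2l1 and Stfa1) to 98.0%, with a median of 79.5%. Stfa3 had no close relative, since its nearest coding sequence, that of Stfa2l1, was 81.7% identical. No source used here says how the authors assigned reads that match several copies. Windows of 50 bases along each coding transcript were therefore looked up in the transcripts of all other genes. The share found elsewhere was 35.6% for Gm5483, 33.5% for BC100530, 26.9% for Stfa1, 24.6% for Stfa2l1 and 15.9% for Stfa2. It was 0 of 363 windows for Stfa3. All shared windows of Gm5483 were in 2010005H15Rik, and those of Stfa2l1 were in Stfa2 and the pseudogene Gm49652. With windows of 75 bases the shares were lower. They were 23.5% for Gm5483, 22.4% for BC100530, 10.7% for Stfa1, 7.8% for Stfa2l1 and 5.8% for Stfa2. Values of single members other than Stfa3 are thus uncertain to the extent that reads were split between these copies, which depends on read length.

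**Figure D1:**
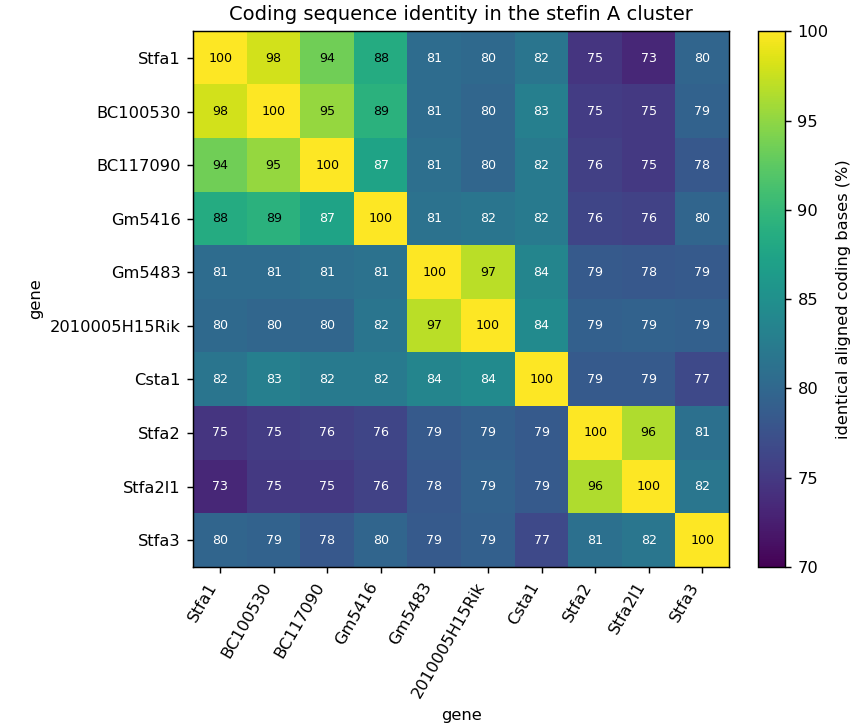
Identity of aligned coding bases, in percent, between the 9 protein-coding genes of the cluster span and the flanking stefin gene Csta1; each cell is a pair of genes and brighter cells are more alike. Stfa1 with BC100530 (98.0%), Gm5483 with 2010005H15Rik (96.9%) and Stfa2 with Stfa2l1 (96.5%) form the brightest pairs, and Stfa3 has no partner above 81.7%.

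The stretches just before the RefSeq transcription start are also alike among the 6 genes. The 120 bases before each start are shown (GRCm38.p6, each on the strand of its gene) because all 6 carry the same pair of short motifs there. GENCODE places the starts of Stfa1, BC100530 and Stfa2 further upstream. By its positions the stretch shown lies within Stfa1 and BC100530 and partly within Stfa2. Capitals mark TTTAAAA and GAGGAGGAG.
Gm5483 (chr16:36184092-36184211, plus): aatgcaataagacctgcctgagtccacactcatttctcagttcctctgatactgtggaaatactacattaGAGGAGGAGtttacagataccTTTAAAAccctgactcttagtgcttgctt
Stfa2l1 (chr16:36156691-36156810, plus): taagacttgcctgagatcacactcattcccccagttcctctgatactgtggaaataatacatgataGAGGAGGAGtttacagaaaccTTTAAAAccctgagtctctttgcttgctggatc
Stfa2 (chr16:36408364-36408483, minus): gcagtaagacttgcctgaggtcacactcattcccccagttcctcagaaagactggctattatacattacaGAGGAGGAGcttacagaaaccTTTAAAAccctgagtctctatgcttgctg
Stfa1 (chr16:36277028-36277147, plus): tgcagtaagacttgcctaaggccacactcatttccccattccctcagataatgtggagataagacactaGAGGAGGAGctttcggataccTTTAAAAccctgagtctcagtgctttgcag
BC100530 (chr16:36367571-36367690, minus): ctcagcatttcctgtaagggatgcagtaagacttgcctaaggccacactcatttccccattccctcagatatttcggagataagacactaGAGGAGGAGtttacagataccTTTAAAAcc
Stfa3 (chr16:36455393-36455512, minus): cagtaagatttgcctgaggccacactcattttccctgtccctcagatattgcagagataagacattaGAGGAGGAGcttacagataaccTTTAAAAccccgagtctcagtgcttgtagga

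The AT-rich string TTTAAAA was on the gene strand within 250 bases before the start in 6 of 6 members, against 5.40% of 32851 RefSeq promoters. GAGGAGGAG was there in 6 of 6, against 1.46%, and both were present in 23 promoters (0.0700%), the 6 members included. These strings were picked after the sequences had been read. They share no base with each other, and 12 bases lie between them in 5 members and 13 in Stfa3. TTTAAAA began 9 bases before the RefSeq start in BC100530 and 29 to 33 bases before it in the other members. The string TATAAA was in 0 of 6 on either strand, against 12.4% of all promoters. TTNNGNAA, a loose form of the core bound by C/EBP factors, was in 5 of 6 on either strand, against 36.8%. GAGGAA, an ETS family core, was in 6 of 6 on either strand, against 23.3%, and in 1 of 6 on the gene strand, against 12.4%. In each member it lay apart from GAGGAGGAG. GGGA followed after any 4 bases by CC, a loose NF-kB string, was in 2 of 6 on either strand, against 17.6%. The 250-base promoters of the members were 65.2% to 89.4% identical in pairs, so these are matches in duplicated sequence and not independent of each other.

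Values are the deposited log2(value + 1), and a difference is the LPS mean less the saline mean on it. LPS 3 has values for Gm5483 and BC100530 but none for the 4 Stfa genes, because its table ends early in the alphabet. Multiplied by transcript length, low values of genes with 1 transcript gathered at whole steps. In each library 55 to 86 genes lay within 4% of 1 step and 6 to 17 within 4% of 1.5 steps, and 25 to 50 lay at 2 steps and 9 to 20 at 2.5. The value before the log therefore appears to be per length, and a step appears to be worth about 1 read. At the length of Stfa3 a step was 0.099 to 0.145 before the log in the libraries that list it. Numbers of steps are approximate, since no source used here gives the authors' gene lengths.

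Gm5483 and Stfa2l1 were the most abundant members in every library that lists all 6. Gm5483 stood at 9.20, 7.83 and 8.08 in LPS 1 to LPS 3 and at 2.92, 3.50 and 2.26 in saline 1 to saline 3. The groups did not overlap, and the lowest LPS value lay 4.32 above the highest saline value. The LPS libraries averaged 8.37 ± 0.73 (SD, n = 3) and the saline libraries 2.89 ± 0.62 (SD, n = 3), so they differed by 5.47. Before the log that is 587, 226 and 269 against 6.58, 10.3 and 3.78, or 52.3-fold between the means, and 9 of the 13116 genes that passed the filter on low values had a larger difference.

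Stfa2l1 stood at 9.02 in LPS 1 and 7.30 in LPS 2, and at 2.95, 4.54 and 3.29 in saline. Both LPS values were above all saline values, and saline 2 was the highest saline library. The LPS libraries averaged 8.16 ± 1.21 (SD, n = 2) and the saline libraries 3.59 ± 0.83 (SD, n = 3), so they differed by 4.57, or 26.8-fold between the means before the log. These values were worth about 68.3 to 159 steps in saline and 1101 to 4095 in LPS.

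Stfa1 stood at 5.36 and 3.67 in LPS 1 and LPS 2 and at 0.84, 1.77 and 0.36 in saline. Its difference was 3.53, from 0.99 ± 0.72 (SD, n = 3) with saline to 4.52 ± 1.19 (SD, n = 2) with LPS. BC100530, its near-identical relative, stood at 4.38, 1.77 and 3.51 in LPS and at 0.26, 0.58 and 0.32 in saline. Its difference was 2.84, with 3.22 ± 1.33 (SD, n = 3) against 0.39 ± 0.17 (SD, n = 3). In both genes every LPS value was above every saline value. BC100530 rested on about 2.87 to 5.19 steps in saline, so its fold change is poorly fixed by the saline side.

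Stfa2 stood at 5.45 and 2.58 in LPS 1 and LPS 2 and at 0.49, 0.62 and 0.03 in saline, a difference of 3.63. It had the widest gap between the LPS libraries that list it, and its saline 3 value was under 1 step. Stfa3, the member that shares no 50-base window with another gene, stood at 3.03 and 1.16 in LPS and at 0.03, 0.01 and 0.01 in saline, a difference of 2.08. In LPS these values were worth about 55.7 and 8.54 steps. Its 3 saline values before the log, 0.0232, 0.0074 and 0.0104, were all under 1 step. They also stood in the ratios of the tiny values of the saline tables: saline 2 to saline 1 was 0.319 for Stfa3 and 0.321 at the median of 778 genes with saline values above 0 but under 0.003. No fold change is given for Stfa3 for this reason.

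**Figure D2:**
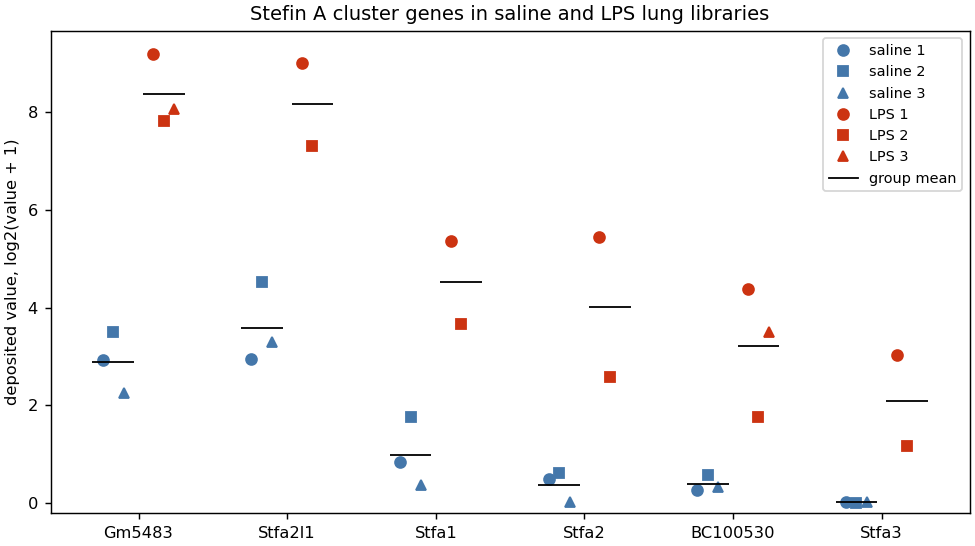
Deposited values, log2(value + 1), of the 6 genes; each point is a library (marker shape gives its number, colour its treatment) and lines are group means, with no LPS 3 point for the 4 Stfa genes. All LPS points of each gene lie above its saline points, and LPS 1 is the highest LPS library for each gene.

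All 6 members thus had every LPS value above every saline value, as did 32.7% of the 13116 genes tested and 33.9% of the 2821 genes without an LPS 3 value. Differences of 2 or more, which all 6 had, were present in 2.29% of tested genes, and differences of 5 or more, which Gm5483 had, in 0.122%. The members were chosen with this contrast known, so nothing is read from either count. Their median difference was 3.58, against 0.02 over all genes tested. It was 2.47 without LPS 1, 4.72 without LPS 2 and 4.73 as log2(value + 0.1). Gm5483, BC100530, Stfa1 and Stfa2l1 passed the filter, which asked that 3 libraries reach 1 before the log, and Stfa2 and Stfa3 did not. BC100530 passed only through its LPS values.

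Levels per length ordered the members as Gm5483, Stfa2l1, Stfa1, Stfa2, BC100530 and Stfa3 by their LPS means. The step between Stfa2l1 and Stfa1 was larger than the spread, with the lower Stfa2l1 value (7.30) above the higher Stfa1 value (5.36). Ranges of other neighbours in the order overlapped, but within LPS 1 and within LPS 2 the same order held apart from Stfa1 and Stfa2. Stfa2 was above Stfa1 in LPS 1 and below it in LPS 2. Gm5483 and Stfa2l1 together made up 90.4% to 95.7% of the summed level of the 6 genes in the 5 libraries that list them all. The sum itself, before the log, was 14.7, 36.0 and 13.2 in saline and 1215 and 404 in LPS 1 and LPS 2.

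The balance between the leading members varied between libraries. The ratio of Stfa2l1 to Gm5483 before the log was 1.02, 2.14 and 2.33 in the saline libraries and 0.882 and 0.694 in LPS 1 and LPS 2. It was not tested, and the share of other gene pairs set apart in this way was not computed, so nothing is read from the gap. The ratio also depends on how reads were split, since 35.6% of Gm5483 windows and 24.6% of Stfa2l1 windows occur in other genes. In saline Stfa2l1 was the higher of the pair in 3 of 3 libraries, by the least in saline 1, and in LPS Gm5483 was the higher in both. By level Gm5483 ranked 210 among the 23183 genes in LPS 1 and 489 in LPS 2, against 6231 to 10318 in saline. Stfa2l1 ranked 236 and 674 in LPS and 3445 to 8217 in saline.

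The rest of the cluster was uneven. 2010005H15Rik, the near copy of Gm5483 that RefSeq calls Csta2, stood at 5.38, 4.49 and 3.97 in LPS and at 1.55, 1.98 and 1.02 in saline. It rose by 3.10 (SE 0.35; limma adjusted p = 0.000242, by the Benjamini-Hochberg method across all tested genes), higher in 3 of 3 LPS libraries, where 50.1% of tested genes were called, 25.7% higher and 24.3% lower. It stayed called in each alternative run for it, with differences of 2.47 to 3.62. Its reads may in part be those of Gm5483, since 22.0% of its 50-base windows occur there. Gm5416, listed by RefSeq as Csta3, shares no such window with any other gene. It stood at 3.20, 1.66 and 1.65 in LPS, about 45.4, 10.6 and 11.5 steps, and at 0.04, 0.01 and 0.02 in saline, where its values were under 1 step and in the same fixed ratios as those of Stfa3. It passed the filter only through LPS and is given without a test.

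BC117090, within the same span, was listed at 0 in all 3 LPS libraries and at no more than 0.0005 in saline, although 33.7% of its windows occur in other genes and its coding sequence is 95.2% identical to that of BC100530. Csta1, the stefin gene that flanks the span, stood at 0.02 or less in saline and at 0.03, 0 and 0 in LPS. Of the nearest measured coding genes outside the stefins, Ccdc58 stood at 3.94 to 4.27 in LPS and 3.26 to 3.84 in saline. Fam162a stood at 6.45 to 6.90 and 5.98 to 6.57. On the other side the costimulatory gene Cd86 was at 2.89 to 3.15 in LPS and 1.84 to 2.37 in saline, Ildr1 at 2.30 to 2.56 and 2.33 to 2.51, and the calcium-sensing receptor gene Casr at 0.05 or less. Ccdc58 (0.61; limma adjusted p = 0.0202) and Cd86 (0.84; limma adjusted p = 0.00346) rose, calls that ended with equal sums (-0.13 and 0.18). Ccdc58 also lost its call without saline 1, without saline 3, without LPS 2 and with no filter on low values. Fam162a (0.50; limma adjusted p = 0.0679) and Ildr1 (-0.03; limma adjusted p = 0.881) did not pass, but Fam162a was called higher without saline 2 (0.70).

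**Figure D3:**
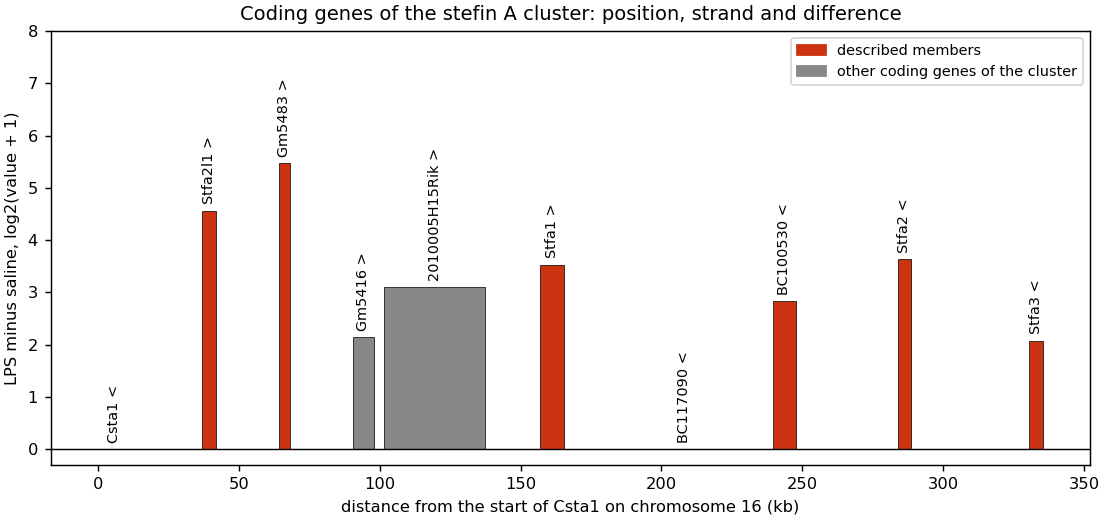
Difference between LPS and saline means, log2(value + 1), of the coding genes of the cluster against the distance from the start of Csta1 in kb; bar width is gene length and the arrow after each name gives the strand (> plus, < minus). The 6 members (red) range from 2.08 for Stfa3 to 5.47 for Gm5483, and Csta1 and BC117090 have bars too small to see.

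Within the LPS group the members were uneven between libraries, and neutrophil markers moved with them. LPS 1 was above LPS 2 for 6 of 6 members, by 1.37 (Gm5483), 1.69 (Stfa1), 1.72 (Stfa2l1), 1.87 (Stfa3), 2.61 (BC100530) and 2.86 (Stfa2), a median of 1.79. LPS 1 was above LPS 2 for 17 of 17 measured neutrophil markers, with a median of 1.12, and for 50.5% of all 13116 genes, with a median of 0.00. The medians were 0.86 for 9 neutrophil precursor markers, 0.33 for 14 monocyte and macrophage markers and -0.02 for 10 cysteine cathepsins. Summed before the log, the members were 3.01 times and the neutrophil markers 2.55 times as high in LPS 1 as in LPS 2. Most of the members' sum came from Gm5483 and Stfa2l1, and most of the neutrophil sum from S100a8 and S100a9. In saline 2 the sums were 2.44 and 2.81 times those of saline 1. Monocyte and macrophage markers (1.92 times) and cathepsins (1.76 times) were also higher in sum in saline 2. Saline 2 was the highest saline library for 38.9% of all genes, 5 of 6 members and 16 of 17 neutrophil markers. The same held for 14 of 14 monocyte and macrophage markers, 9 of 9 precursor markers and 8 of 10 cathepsins.

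**Figure D4:**
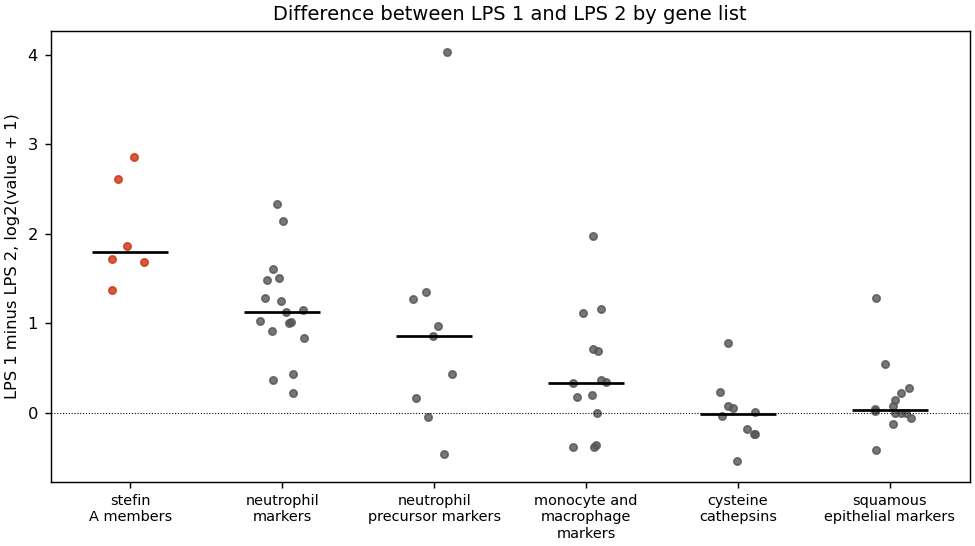
Difference between LPS 1 and LPS 2, log2(value + 1), for each gene (point) of 6 lists, with the list median as a line. All 6 stefin A members and all 17 neutrophil markers lie above 0, and cathepsins centre near 0.

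Of 17 neutrophil markers 13 rose in LPS, against 25.7% of all genes tested, and the other 4 did not pass. Their median difference was 2.95 beside 0.02 for all genes tested. They were led by the decoy receptor gene Il1r2 (4.81; limma adjusted p = 0.000253), S100a8 (4.18) and S100a9 (4.12), which encode the calprotectin subunits, and the formyl peptide receptor gene Fpr2 (3.99). Their summed level, most of it from S100a8 and S100a9, was 779 to 2186 in saline and 10252 to 26169 in LPS over the 16 markers with 6 values. None was at 0 in a whole group, and Ly6g was not analysed here. Among 5 tested precursor markers 4 rose, against the same 25.7% of all genes, led by the granule protein genes Ngp (4.45; limma adjusted p = 0.00217) and Camp (2.02; limma adjusted p = 0.00302). The call of Chil3 (0.55, limma adjusted p = 0.0302) was lost with quantile normalization (-0.12) and equal sums (-0.25). It was also lost without saline 1, without saline 3 and without any single LPS library. The primary granule gene Mpo, a defining precursor gene, was at 0.00 to 0.09 in saline and 0.00 to 0.43 in LPS. Elane was at 0.00 to 0.11 and 0.21 to 1.57. The summed level of the 9 precursor markers was 195 to 316 in saline and 341 to 457 in LPS, most of it from Chil3 and Ltf. Before the log Chil3 was at 166 to 225 in saline and 270 to 300 in LPS, and Ltf, which did not pass, at 26.4 to 86.9 and 18.7 to 65.6. The sum therefore says little about the other precursor markers. In bulk tissue more cells of a type and more RNA per cell cannot be told apart, and the part of neutrophil number in the members' values was not tested.

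Beside 25.7% of all genes called higher and 24.3% lower, 7 of 14 monocyte and macrophage markers rose, 2 fell and 5 did not pass. Their median was 0.49. With equal sums 3 were higher, 5 were lower and the median was -0.29. Ms4a6c (2.87) and the Fc receptor gene Fcgr1 (2.30) rose and the mannose receptor gene Mrc1 (-1.19) fell, each with a limma adjusted p of at most 0.000899. Siglecf (-1.63) also fell, but it passed the filter only through its saline values, so nothing is read from its call. The list summed to 251 to 480 in saline and 537 to 899 in LPS. Stefin A is also made by squamous epithelium, and of 14 markers of that tissue only Krt10 and Sprr1a passed the filter. Krt10 was at 1.18 to 1.37 in saline and 1.22 to 1.76 in LPS (0.14; limma adjusted p = 0.512), and Sprr1a at 1.19 to 3.21 and 1.83 to 3.11 (-0.03; limma adjusted p = 0.968). The 10 squamous markers with 6 values summed to 2.80 to 4.50 in saline and 2.23 to 3.14 in LPS. Among the defining ones, Krt5 was at 0.50 to 1.20 in saline and 0.00 to 0.14 in LPS, Krt6a at 0.04 or less, and Sprr1b was listed at 0 wherever it has a value. Others below the filter went either way. Lor was at 0.09 to 0.18 in saline and 0.23 to 0.51 in LPS, and Krt14 at 0.05 to 0.20 and 0.10 to 0.65. Ivl was at 0.37 to 0.80 in saline and 0.04 to 0.21 in LPS.

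The genes with the pattern most like the mean of the 6 members were sought over the 5 libraries that list all members, by the root mean square difference of values centred on each gene's own mean. Of 13116 genes the nearest non-members were the neutrophil collagenase gene Mmp8 (0.18) and Retnlg (0.23), then the cytokine gene Osm (0.25), Rnd1 (0.27), the endothelial selectin genes Selp (0.30) and Sele (0.35), S100a9 (0.39), 2010005H15Rik (0.39), the pentraxin gene Ptx3 (0.41) and Ifitm6 (0.41). The median over all genes was 1.93. Among the members, Stfa1 was closest to the mean pattern (0.23), then Stfa2 (0.30), and Gm5483 was farthest (0.98). Mmp8 and Retnlg, chosen for this likeness, were higher in LPS 1 than in LPS 2 and highest among the saline libraries in saline 2, as were the members other than Stfa3, whose highest saline library was saline 1. Mmp8 stood at 6.39 and 4.25 in LPS 1 and LPS 2 and at 1.51, 2.49 and 1.63 in saline.

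Cystatins outside the cluster went both ways. Cstb, the stefin B gene and the remaining type 1 cystatin, stood at 9.98, 10.15 and 9.71 in LPS and at 6.70, 8.31 and 7.41 in saline. It rose by 2.47 (SE 0.36; limma adjusted p = 0.000731) and remained called in each alternative run, with differences of 1.67 to 2.90. Unlike the members, Cstb was 0.17 lower in LPS 1 than in LPS 2. Of 16 other cystatin genes measured, 6 were tested, in a fit where 50.1% of all genes were called, 25.7% higher and 24.3% lower. Of the 6, Cstb rose, 2 fell and 3 did not pass, near that share, with a median of -0.17. With equal sums 4 were lower and the median was -0.90. As deposited, those that fell were Cst8 (-1.24, limma adjusted p = 0.0274) and the fetuin A gene Ahsg (-0.99). Ahsg passed the filter only through its saline values, so its call is counted here but nothing is read from it. Cst8 lost its call without saline 1, without saline 3, without LPS 3, with quantile normalization and with no filter. The secreted cystatin C gene Cst3 was at 9.67, 9.64 and 9.71 in LPS and 9.83, 10.34 and 9.58 in saline (-0.24; limma adjusted p = 0.421), and was called lower with quantile normalization (-1.15) and equal sums (-1.05). The leukocyte cystatin gene Cst7 was at 3.70, 2.74 and 2.49 in LPS and 1.59, 2.47 and 2.51 in saline (0.79; limma adjusted p = 0.0745), and was called higher without LPS 3 (1.03).

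Cysteine cathepsins, which include the stefin targets B, H, L and S named above, went both ways as a list. Among those targets Ctsb, Ctsh and Ctss rose as deposited and Ctsl did not pass. The genes that fell, Ctsf and Ctso, were not among them. Where 25.7% of all genes tested rose and 24.3% fell, 5 of 10 cysteine cathepsin genes rose, 2 fell and 3 did not pass. Their median was 0.52, but with equal sums 5 were lower, none was higher (limma) and the median was -0.28. With quantile normalization 2 were higher, 2 lower and the median was 0.04. Ctsz rose by 1.33 (SE 0.26; limma adjusted p = 0.00305) and Ctss, an endopeptidase of antigen-presenting cells, by 1.28 (SE 0.27; limma adjusted p = 0.00402). The granule protease activator gene Ctsc rose by 1.12 (limma adjusted p = 0.00460), Ctsh by 0.97 (limma adjusted p = 0.0192) and Ctsb by 0.73 (limma adjusted p = 0.0123). None of these 5 was called with equal sums, where Ctsb had a difference of -0.07, and with quantile normalization Ctsc, Ctsh and Ctsb lost their calls. Ctsh also lost its call without saline 1, without LPS 3 and with no filter. Ctsf (-1.08; limma adjusted p = 0.00280) and Ctso (-0.83; limma adjusted p = 0.00140) fell, and were lower under each scaling. Ctsl ranged over 6.42 to 6.73 with saline and 6.80 to 6.97 with LPS (0.31; limma adjusted p = 0.138), and turned to -0.25 with quantile normalization and -0.49 with equal sums, where it was called lower; without saline 2 it was called higher (0.39). No cathepsin had a difference as large as the smallest among the members, 2.08 for Stfa3, but members and cathepsins were not compared by a test.

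**Figure D5:**
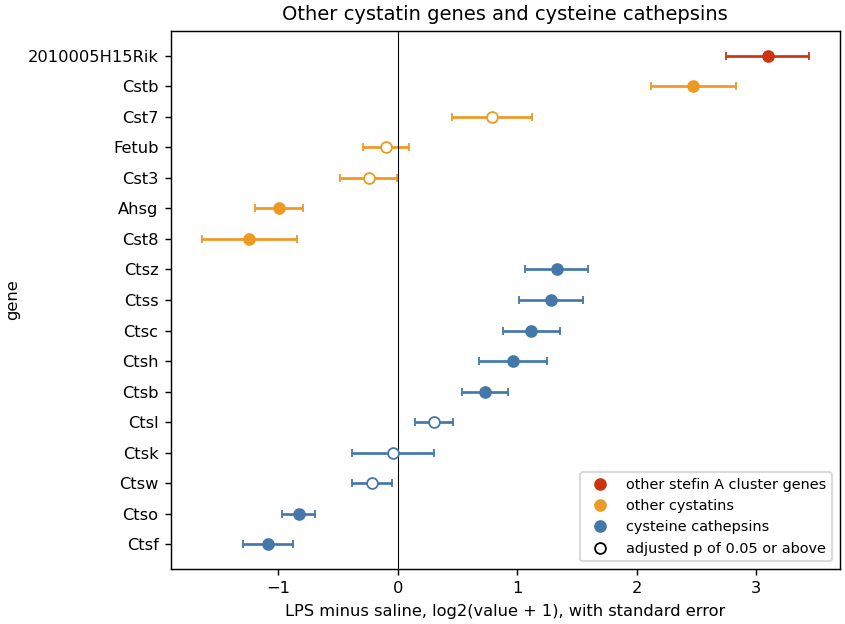
Difference between LPS and saline, log2(value + 1), with its standard error from limma, for 2010005H15Rik, 6 other cystatin genes and 10 cysteine cathepsin genes (3 libraries a group); open points did not pass the adjusted threshold of 0.05. 2010005H15Rik (3.10) and Cstb (2.47) lie apart from the rest, whose differences run from -1.24 to 1.33. Ahsg passed the filter only through its saline values.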

How the data were processed

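RNA from mouse lung was sequenced in 6 libraries, grouped by title as 3 saline and 3 LPS. TopHat and the mm10 build are named in the submitters' processing notes, and no source used here names the counter, annotation or scaling. The authors deposited 1 table per library with a gene symbol and a value on a log2 scale, read from the values as log2(value + 1); no counts were analysed here. The labels do not say whether each library is a different animal, so the p-values reflect only how these samples vary, which may be technical.

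Non-member genes were tested by limma (version 3.58.1, under R 4.3.3; variance trend on) over the 13116 genes that reached 1 before the log in 3 or more libraries (10295 with 6 values, 2821 with 5), with Benjamini-Hochberg adjustment over all of them and a threshold of 0.05. The fit was tested on simulated data. The members and the gene lists were chosen with earlier results of these data known. Named were all members, genes of the cystatin and cathepsin lists, up to 4 called genes of each marker list by size of difference, neighbours on the chromosome and the 10 most similar patterns. Mpo, Elane, Krt5, Krt6a, Sprr1b, Lor, Krt14 and Ivl were added after their values were seen. Gene positions and transcripts are GENCODE M21 (mm10), promoters RefSeq GRCm38.p6 (6 of 6 members matched by RefSeq symbol), and motifs were chosen after the promoters had been read. Alignments used Biopython 1.88. Alternatives covered the filter, pseudocount, scaling, threshold, each library and the replicate number.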

Additional observations from a re-analysis of the deposited data

How the results depend on the processing

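The differences of the 6 members stayed above 0 in each alternative run. As log2(value + 0.1) BC100530 moved to 4.35, Stfa1 to 4.53, Stfa2 to 5.45 and Stfa3 to 4.78, and their median from 3.58 to 4.73; leaving out 1 library at a time gave medians of 2.47 to 4.72. With libraries scaled to equal sums the all-gene median shifted to -0.68 from 0.02, 798 genes were called higher and 8343 lower in place of 3377 and 3188, 4 other cystatins, 5 cathepsins, 1 precursor marker and 5 monocyte and macrophage markers were called lower, and 0 cathepsins and 3 monocyte and macrophage markers higher. Quantile normalization left 2 cathepsins higher. Where genes needed a mean of 5 or more, 1752 genes, 0 other cystatins and 1 monocyte and macrophage marker were lower and 2 precursor markers higher. With no filter 2 other cystatins were higher and 1 lower, 4 monocyte and macrophage markers were higher, and 1 squamous marker was higher and 3 lower. At an adjusted p of 0.01, 2033 genes were higher and 2004 lower, with 1 other cystatin lower and 3 cathepsins higher. Leaving out 1 library at a time gave 1 to 2 other cystatins higher and 0 to 2 lower, 1 to 2 monocyte and macrophage markers lower and 0 to 1 precursor marker lower. Apart from the effect of construction in the equal sums, filter and threshold settings, the cause was not tested. With the replicate number as a block 2793 genes were higher and 2624 lower, the neutrophil marker Hdc lost its call and the members' median was 3.34, where the block drops saline 3 for the Stfa genes. Same-numbered libraries did not deviate together (correlations over 10295 genes of -0.23, -0.08 and -0.25), and no LPS library correlated best with its own number. Differently numbered libraries had correlations of -0.01 to 0.22. The labels do not say what the number means, and 3 libraries a group are too few to decide whether it marks pairs. Depth limits Stfa3, Stfa2 and BC100530 in saline, where values were worth about 5.19 steps or fewer.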
